A study of Mus musculus with 8 samples.

Results

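The 10 tubulin isotypes described here are 4 genes of α-tubulin (Tuba1a, Tuba1b, Tuba1c and Tuba4a) and 6 of β-tubulin (Tubb2a, Tubb2b, Tubb3, Tubb4a, Tubb4b and Tubb5). They were found by gene name among the 45706 genes of the count file, and all 10 were among the 17495 genes that passed the filter on low counts. The data are ribosome-associated mRNAs of PV+ interneurons, the parvalbumin-expressing inhibitory cells of the cortex, from 4 CNO-treated and 4 vehicle-treated samples. Every mouse was PvalbFlp/+;Neurod6Cre/+ and received at P1 an AAV (flox-fdio) that encodes HA-RPL10a and myc-hM3Dq under the hSyn promoter. In this construct Flp, made by cells that express Pvalb, switches on an HA-tagged ribosomal protein together with hM3Dq, a designer receptor that activates neurons when CNO is given. Cre, made in the Neurod6 lineage of pyramidal cells, removes the construct again. The animals were used between P42 and P70. CNO at 1 mg/kg or vehicle was given in 5 injections over about 48 h, and each sample pooled the somatosensory cortex of 4 brains, so that the vehicle samples also held the virus and the receptor. The comparison asks which mRNAs on the ribosomes of PV+ interneurons change when these cells are made more active.

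Microtubules are hollow polymers of heterodimers of an α-tubulin and a β-tubulin, and they carry the transport along axons and dendrites. Each class is encoded by several genes, the isotypes, whose proteins are nearly alike except in the acidic tail at the C terminus, where tubulin is modified and where motors and microtubule-associated proteins bind. Neurons make unusually large amounts of tubulin, and cells adjust the level of tubulin mRNA to the amount of free dimer.

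Alike proteins mean alike transcripts, which sets what a count can say about a single gene here. The 3 α-1 genes lie close together on mouse chromosome 15 (GRCm38), with Tuba1b at chr15:98931425-98934565 and Tuba1a at chr15:98949837-98953703 on the minus strand and Tuba1c at chr15:99029891-99038110 on the plus strand. In the GENCODE M21 transcripts the coding sequence of Tuba1c was 97.9% identical to that of Tuba1b and 97.1% identical to that of Tuba1a. Tuba4a, at chr1:75214228-75219865, was 85.2% identical to Tuba1c. The longest run of coding bases without a difference was 468 between Tuba1b and Tuba1c and 446 between Tuba1a and Tuba1c, against 29 between Tuba1c and Tuba4a, so that a read from much of the coding sequence can come from any α-1 gene.

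Tuba1c differs from the other α-1 genes to a large part at the end of the coding sequence, which encodes the acidic tail. Of the 22 substitutions between Tuba1b and Tuba1c, 14 fell in the last 60 bases before the stop codon of Tuba1c. Of the 33 between Tuba1a and Tuba1c, 13 did. The coding sequence of Tuba1c was 6 bases shorter. Tuba1a and Tuba1b differed at 23 positions, of which only 1 was in the tail. The Tuba4a protein is known to be made without the terminal tyrosine that the α-1 isotypes carry. Among the β genes only Tubb2a and Tubb2b came as close to each other, at 96.5% identity, and of their 47 differences only 3 lay in the last 60 bases before the stop codon, in capitals for Tubb2b. These ends are printed to show how close this pair is where other β isotypes differ. Tubb4a and Tubb5, from other β genes, follow for contrast, with capitals for bases not matched to Tubb2a.
Tubb2a: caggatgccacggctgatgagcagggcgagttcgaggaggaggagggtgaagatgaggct
Tubb2b: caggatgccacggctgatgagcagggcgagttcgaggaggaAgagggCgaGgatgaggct
Tubb4a: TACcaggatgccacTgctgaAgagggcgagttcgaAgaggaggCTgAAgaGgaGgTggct
Tubb5: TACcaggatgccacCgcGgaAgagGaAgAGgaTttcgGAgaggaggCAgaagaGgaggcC

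The share of each gene's 31-base stretches that also occur in transcripts of other genes split the isotypes into those that a short read can tell apart and those that it often cannot. It was 77.0% for Tuba1a, 68.9% for Tuba1b, 55.3% for Tuba1c, 56.4% for Tubb2a, 43.1% for Tubb2b and 48.6% for Tubb4b. It was 1.9% to 3.5% for Tuba4a, Tubb3, Tubb4a and Tubb5. Within Tuba1c the shared stretches were all coding, 1248 of 1320, with 0 of 501 in the 5′ untranslated region and 0 of 71 in the 3′ untranslated region. The overlap of Tubb4b lay mainly with the processed pseudogene Tubb4b-ps1 (41.0% of its stretches), which held 1 to 13 counts per sample. Tuba1a and Tuba1b also overlap the predicted gene Gm49450, Tuba1b an antisense gene, Tuba4a Stk16, Tubb3 Gm20388 and Tubb4b Fam166a. The strand setting of the counting is not given in the sources used here, so reads of a gene and an overlapping partner may not be told apart.

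Depth was similar in all samples, at 44064161 to 49413273 estimated counts, so that 3 counts corresponded to between 0.0607 and 0.0681 CPM (counts scaled to library size). Fos, an immediate early gene that rises with neuronal activity, lay between 32.2 and 69.5 normalized CPM in the CNO samples and between 11.3 and 15.8 in the vehicle samples, without overlap (log2 fold change 1.93, edgeR quasi-likelihood adjusted p = 0.0520). Vehicle replicate 1 stood apart in cell type markers. The summed level of 12 PV interneuron markers was 2625 TPM (counts scaled for transcript length and library) there and 5043 to 7672 in the other 7 samples, and the sum of 12 pyramidal cell markers was 1212 against 760 to 1053. Pvalb itself was at 300.1 TPM there and at 820 to 1160 TPM elsewhere, and Slc17a7, the vesicular glutamate transporter of pyramidal cells, at 547 TPM against 331 to 493. No marker of either list was at 0 in any sample, and neither was any of 24 markers of astrocytes, oligodendrocytes and microglia or of 8 vascular markers. Results that rest on this sample are given with and without it.

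Tubulin mRNA was abundant in the pulled-down RNA, and its bulk came from a few isotypes. That RNA also held Slc17a7 of pyramidal cells, at a mean of 433 TPM beside 907 TPM for Pvalb. What part of the tubulin mRNA came from PV+ interneurons was not tested. Levels between genes are compared in TPM, which take account of transcript length. Averaged over the 8 samples, the order was Tuba1a (1050.1 TPM), Tuba1b (659.98), Tuba4a (594.56), Tubb2a (533.81), Tubb4a (409.97), Tubb4b (253.28), Tubb3 (205.15), Tubb5 (118.3), Tuba1c (16.9) and Tubb2b (9.29). Within each sample, every gene of this order was above the next in 8 of 8 samples, except at 3 places. Tuba1b was above Tuba4a and Tubb2a above Tubb4a in 7 of 8 samples, the exception being vehicle replicate 1 in both, and Tuba1c was above Tubb2b in 5 of 8. The ranges over samples did not overlap between Tuba1a and Tuba1b, between Tubb4a and Tubb4b or between Tubb3 and Tubb5. Tuba1c, at 1.17 to 43.8 TPM, spanned the whole range of Tubb2b, at 7.54 to 12.2 TPM. The split of α-1 counts among Tuba1a, Tuba1b and Tuba1c rests on the shared sequence above.

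**Figure D1:**
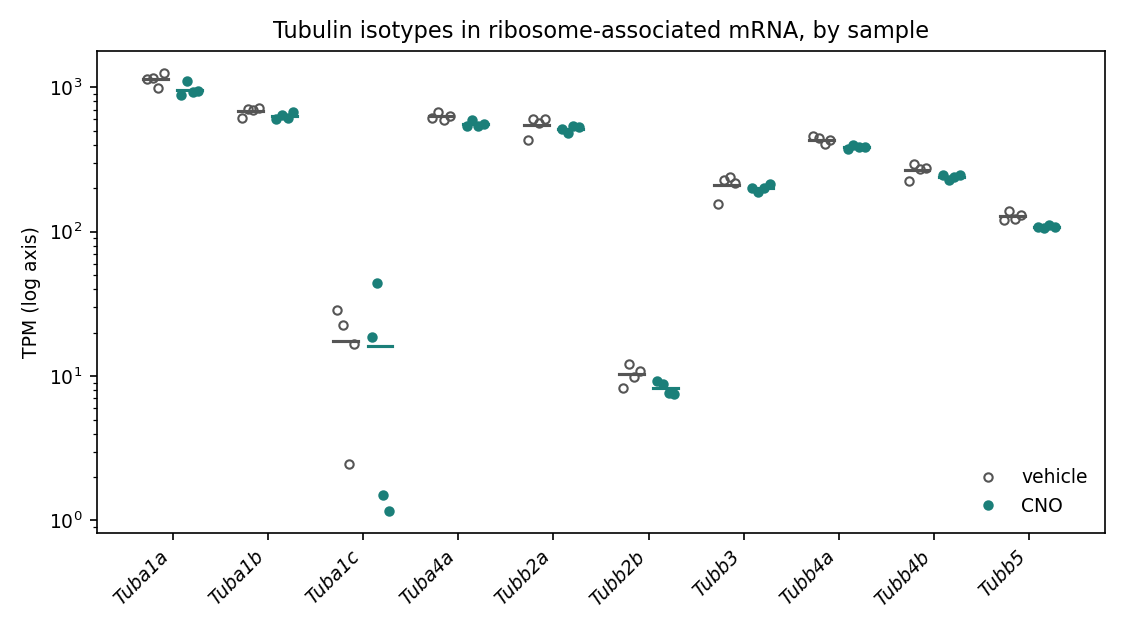
TPM on a log axis for the 10 tubulin isotypes, with 4 vehicle samples as open circles, 4 CNO samples as filled circles and a line at each group mean. All isotypes but Tuba1c and Tubb2b lie between 106 and 1264 TPM, Tubb2b lies near 9.29 TPM, and Tuba1c runs from 1.17 to 43.8 TPM within the groups.

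The main isotypes made up similar parts of the tubulin pool in both groups. Of the α-tubulin TPM, Tuba1a made up 44.3% ± 1.48 (SD, n = 4) with CNO and 45.9% ± 2.27 with vehicle. Tuba1b gave 29.2% ± 1.69 and 27.8% ± 2.07, Tuba4a 25.8% ± 0.605 and 25.5% ± 1.06, and Tuba1c 0.716% ± 0.844 and 0.706% ± 0.461. These differences were smaller than the SD of the vehicle samples. Of the β-tubulin TPM, Tubb2a made up 35.4% ± 0.819 with CNO and 34.3% ± 2.43 with vehicle, and Tubb4a 26.4% ± 1.22 and 27.4% ± 3.60. Tubb5 gave 7.43% ± 0.141 and 8.04% ± 0.461, and Tubb2b 0.570% ± 0.0687 and 0.640% ± 0.0501, differences larger than either SD that were not tested as shares. Vehicle replicate 1 stood apart in the β pool, with the highest share of Tubb4a, 32.8%, and the lowest of Tubb2a, 30.7%.

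**Figure D2:**
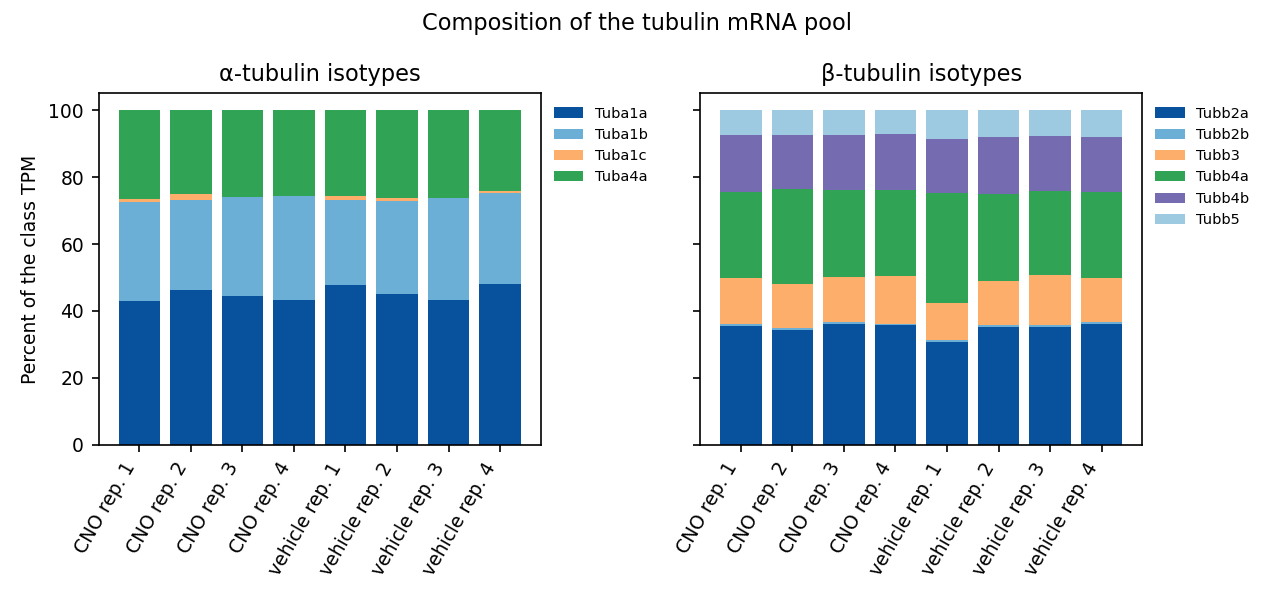
Stacked bars of the percent of α-tubulin TPM (left) and of β-tubulin TPM (right) given by each isotype in each of the 8 samples, each bar summing to 100%. The bars are alike across samples, except that Tubb4a makes up 32.8% of the β pool in vehicle replicate 1.

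Summed over each class, the mean level of tubulin mRNA was lower with CNO, by less than the test could separate with all 8 samples. In TPM the median over all genes was lower with CNO too. With limma on log2(TPM + 1) its log2 fold change was -0.06, beside a median of -0.17 over the isotypes. The α-tubulin sum was 2052, 2389, 2089 and 2175 TPM in CNO replicates 1 to 4 and 2389, 2563, 2280 and 2637 TPM in vehicle replicates 1 to 4. The groups overlapped, since CNO replicate 2 lay above vehicle replicate 3. The difference of means was -0.18 on the log2 scale (2176 ± 151 against 2467 ± 163 TPM, two-sided exact permutation p = 0.0571, where 0.0286 is the smallest p that 70 assignments allow). The β-tubulin sum was 1452, 1414, 1482 and 1492 TPM in CNO replicates 1 to 4 and 1398, 1721, 1615 and 1665 TPM in vehicle replicates 1 to 4, so that vehicle replicate 1 alone made the groups overlap. The difference was -0.13 on the log2 scale (1460 ± 35.1 against 1600 ± 142 TPM, exact permutation p = 0.143). Without vehicle replicate 1 it was -0.19 (exact permutation p = 0.0286, the smallest that 35 assignments allow). Since that sample alone made the groups overlap, leaving it out fixed this p in advance, so the p is no support for a difference. With each of the other samples left out, the exact permutation p was 0.171 to 0.257. The α-tubulin difference without vehicle replicate 1 was -0.20 (exact permutation p = 0.0857). Without CNO replicate 2 it was -0.23 and without vehicle replicate 3 it was -0.22 (exact permutation p = 0.0571 in both). In each of these 2 cases the α groups no longer overlapped, which leaving out a sample of the overlap had fixed, so this is no support either. With any other sample left out, the α exact permutation p was 0.0857 to 0.114. These values with a sample left out were added after seeing the data. The ratio of β to α TPM was 0.674 ± 0.0556 and 0.649 ± 0.0531 (exact permutation p = 0.543). TPM are set relative to all other genes of a sample, so these sums are shares of the library and not amounts per cell, and in pulled-down RNA from pooled tissue fewer labelled cells and less RNA per cell cannot be told apart.

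Gene by gene, no isotype passed the test between CNO and vehicle. With edgeR's quasi-likelihood test and Benjamini-Hochberg adjustment over all 17495 genes, 0 of the 10 isotypes were called at an adjusted p under 0.05, against a background of 0% of all genes. At an unadjusted p under 0.05 there were also 0 of 10, where 2.65% of all genes were lower and 1.44% higher. Robust dispersions with a likelihood ratio test called 0.0857% of all genes and DESeq2 0.0629%, with 0 isotypes in each. The fitted log2 fold change was below 0 in 9 isotypes and above 0 in 1 (below 0 in all 10 when scaled by library size only), with a median of -0.09, where the median over all genes was 0.0014.

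Tubb4a, a β-tubulin known from both neurons and oligodendrocytes, was the isotype with the tightest values and the only one whose groups did not overlap in CPM. It held 364, 360, 377 and 386 CPM in CNO replicates 1 to 4 and 399, 416, 390 and 393 CPM in vehicle replicates 1 to 4. Every CNO sample was thus below every vehicle sample, though by a small margin (log2 fold change -0.10, SE 0.09, edgeR quasi-likelihood adjusted p = 0.817). In CPM this held for 1 of 10 isotypes with CNO lower, against 1.63% of all genes. In TPM it held for 3 of 10, Tubb4a, Tuba4a and Tubb5, against 2.54% of all genes. The summed level of 8 oligodendrocyte markers was 602 to 1080 TPM in the CNO samples and 833 to 1071 TPM in the vehicle samples, with 0 of 8 markers at 0 in any sample, and its part in the Tubb4a values was not tested.

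Tuba4a, the α-tubulin gene with the least shared sequence, lay at 466, 455, 457 and 490.2 CPM with CNO and at 472, 541, 494 and 527 CPM with vehicle. Only CNO replicate 4 reached above a vehicle sample, vehicle replicate 1 (log2 fold change -0.12, SE 0.10, edgeR quasi-likelihood adjusted p = 0.817). Tubb5, a broadly expressed β-tubulin also found in dividing progenitors, lay at 117, 106, 122 and 123 CPM with CNO and 116, 146, 135 and 134 CPM with vehicle. Its 3 vehicle samples other than replicate 1 were above all CNO samples. Tubb5 had the smallest unadjusted p of the 10, 0.0987, with a log2 fold change of -0.18 (SE 0.10, edgeR quasi-likelihood adjusted p = 0.817). This unadjusted p depended on the fit. It was 0.0098 with limma on log2(TPM + 1), and in the quasi-likelihood test 0.0397 with library size only and 0.165 with replicate number as a block. In the first 2 of these fits 4.32% and 4.21% of all genes were lower at an unadjusted p under 0.05, and Tubb5 did not pass after adjustment.

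**Figure D3:**
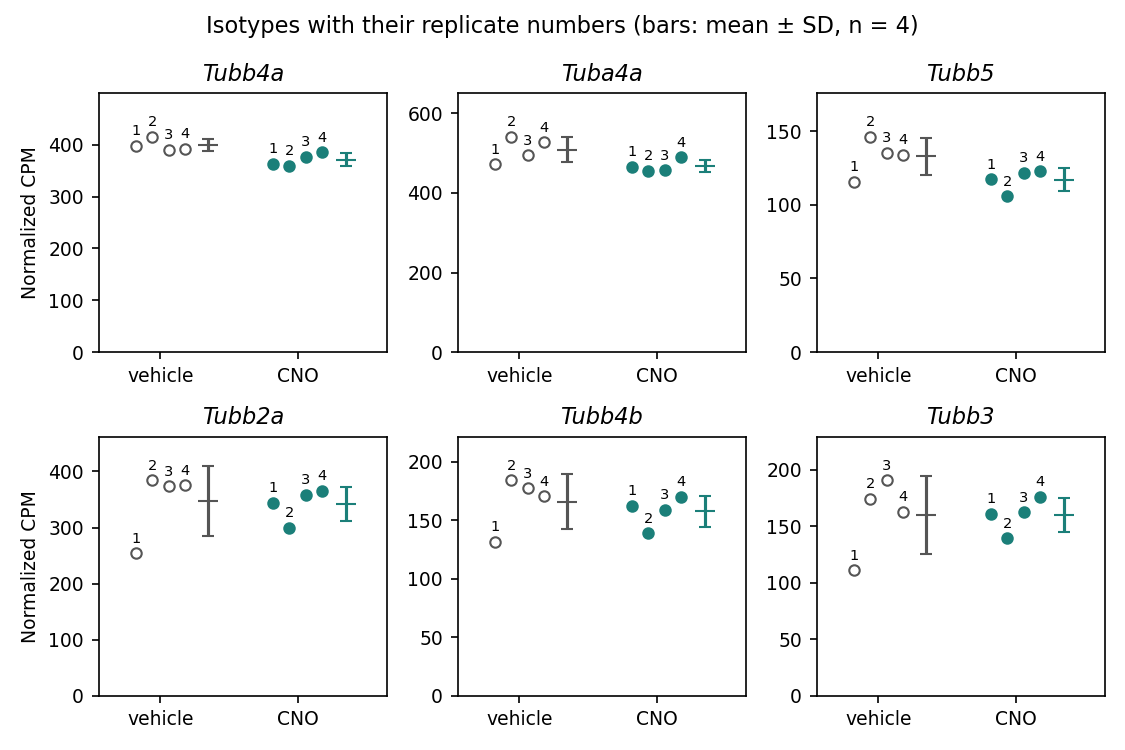
Normalized CPM on axes from 0 for 6 isotypes, with each sample's replicate number beside its point and the mean ± SD (n = 4) at the right of each group. Vehicle replicate 1 is the lowest of all 8 samples in Tubb2a, Tubb4b and Tubb3, and all CNO samples lie below all vehicle samples in Tubb4a.

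In the neuronal β-tubulins Tubb2a and Tubb3, a single vehicle sample moved the group difference more than any other sample did. Tubb2a lay at 344, 299, 359 and 366 CPM with CNO and at 255, 385, 374 and 376 CPM with vehicle. Tubb3, the neuron-specific class III β-tubulin, lay at 161, 139, 162 and 176 CPM with CNO and 111, 174, 191 and 163 CPM with vehicle. In both genes vehicle replicate 1 was the lowest of the 8 samples, and it was also lowest in Tubb4b, at 132 CPM, Tubb2b, at 6.13 CPM, and Tuba1b, at 397 CPM. The group differences were close to 0, with log2 fold changes of -0.02 in Tubb2a (SE 0.14, edgeR quasi-likelihood adjusted p = 0.969) and 0.00082 in Tubb3 (SE 0.16, adjusted p = 0.999). Without vehicle replicate 1 they were -0.15 and -0.14. With each of the other samples left out they ran from -0.06 to 0.04 in Tubb2a and from -0.05 to 0.10 in Tubb3.

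Tubb4b, the β-tubulin abundant in ciliated cells, was 158 ± 13.4 CPM with CNO and 166 ± 23.6 with vehicle (log2 fold change -0.07, SE 0.12). Tubb2b, a β-tubulin prominent in migrating neurons of the developing cortex, was 6.80 ± 0.605 and 8.05 ± 1.44 CPM (log2 fold change -0.24, SE 0.15). Tuba1a, the main α-tubulin of developing neurons and mutated in human cortical malformations, was 663 ± 41.3 and 742 ± 65.5 CPM (log2 fold change -0.16, SE 0.11). Tuba1b, expressed in most tissues, was 462 ± 33.7 and 475 ± 52.1 CPM (log2 fold change -0.04, SE 0.12). The groups overlapped in all 4 genes, and none passed the test, with edgeR quasi-likelihood adjusted p between 0.817 and 0.934. Without vehicle replicate 1 the log2 fold change was -0.12 in Tuba1b and -0.17 in Tubb4b.

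Without vehicle replicate 1, the isotypes separated the groups more often. The CPM groups then did not overlap, with CNO lower, in 6 of 10 isotypes (Tuba4a, Tubb2a, Tubb2b, Tubb4a, Tubb4b and Tubb5) against 2.22% of all genes. In TPM this was so for 8 of 10, which added Tuba1b and Tubb3, against 3.46% of all genes. Wherever leaving out vehicle replicate 1 added an isotype to these counts, that sample alone had made its groups overlap. The added separations were thus fixed in advance, so the counts are no support for a difference. With each of the other 7 samples left out in turn these counts were 1 or 2 in CPM, against 2.17% to 5.29% of all genes, and 3 or 4 in TPM, against 3.10% to 11.1%. The CPM count was 2 without CNO replicate 2 (5.29% of all genes) or CNO replicate 4 (2.17%). The values behind these counts were small, with a median log2 fold change of -0.16 over the 10 isotypes. Tubb5 (-0.25) and Tubb2b (-0.36) reached an unadjusted p under 0.05, 2 of 10 against 1.31% of all genes, and 0 passed the adjusted threshold (edgeR quasi-likelihood adjusted p = 0.9999 for all).

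Another fit kept all 8 samples and took as a covariate the difference of mean log2 CPM between the PV interneuron and pyramidal cell markers. This marker index was 0.623 in vehicle replicate 1 and 1.75 to 2.89 in the other samples. The fit therefore leans on the same sample that was left out above. The index was taken from the same libraries as the isotype values, at 1.75 to 2.89 with CNO and 0.623 to 2.31 with vehicle. It was thus not balanced between the groups, and the fit is no support for a difference. With the index, 7 of 10 isotypes were lower with CNO at an unadjusted p under 0.05, against 2.01% of all genes. These were Tubb5 (log2 fold change -0.28), Tubb4b (-0.23), Tubb3 (-0.21), Tubb2a (-0.20), Tuba4a (-0.17), Tuba1b (-0.16) and Tubb2b (-0.35). Of the rest, Tuba1a was at -0.17 and Tubb4a at -0.11, close to the main fit, and Tuba1c turned to 0.63. None passed after adjustment, with edgeR quasi-likelihood adjusted p = 0.9997 for all. The isotypes share libraries and in part sequence, so these counts are not 10 separate observations, and the counts without vehicle replicate 1 were added after seeing the data.

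Tuba1c was unlike the other isotypes in the size of its spread, which lay within both groups. It held 749, 1640, 60 and 49 counts in CNO replicates 1 to 4 and 980, 857, 100 and 666 counts in vehicle replicates 1 to 4. In CPM these were 15.9, 34.7, 1.29 and 1.03 with CNO and 21.9, 18.3, 2.08 and 13.4 with vehicle. The 3 samples CNO replicates 3 and 4 and vehicle replicate 3 were low, and the other 5 were all at 13.4 CPM or above.

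The highest sample of Tuba1c was 33.6 times the lowest, whereas in the other 9 isotypes this ratio was 1.16 to 1.72. The SD of its log2 CPM over the 8 samples was 2.01, where the median over all genes was 0.234. Counting Tuba1c itself, 41 of 17495 genes (0.234%) varied as much or more. Among the 9661 genes with a mean above 10 TPM it ranked 12. Between groups it was 13.2 ± 15.9 CPM with CNO and 13.9 ± 8.63 CPM with vehicle (log2 fold change -0.08, SE 0.94, edgeR quasi-likelihood adjusted p = 0.987). The value depended on the fit, at -0.65 with robust dispersions, -0.80 with limma on log2(TPM + 1) and 0.63 with the marker index as a covariate, and none of them passed the test.

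Because reads can be split among the α-1 genes, Tuba1c was also expressed as a share of the summed counts of Tuba1a, Tuba1b and Tuba1c. The share was 1.47% (95% exact binomial interval 1.37 to 1.58), 2.93% (2.79 to 3.07), 0.116% (0.0888 to 0.150) and 0.0867% (0.0643 to 0.115) in CNO replicates 1 to 4. In vehicle replicates 1 to 4 it was 1.95% (1.83 to 2.08), 1.43% (1.33 to 1.52), 0.176% (0.143 to 0.214) and 1.01% (0.932 to 1.09). These intervals cover counting error only, and the low samples stood far outside those of the others. The mean share differed by 0.011 percentage points between the groups (two-sided exact permutation p = 1). The sum of the 3 genes does not depend on how reads are split among them, though it leaves out reads assigned to pseudogenes. It varied less, at 1138 ± 55.4 CPM with CNO and 1231 ± 95.6 CPM with vehicle (difference -0.11 on the log2 scale, exact permutation p = 0.171). This difference was -0.07 without vehicle replicate 4 and -0.19 from summed TPM (exact permutation p = 0.0857).

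**Figure D4:**
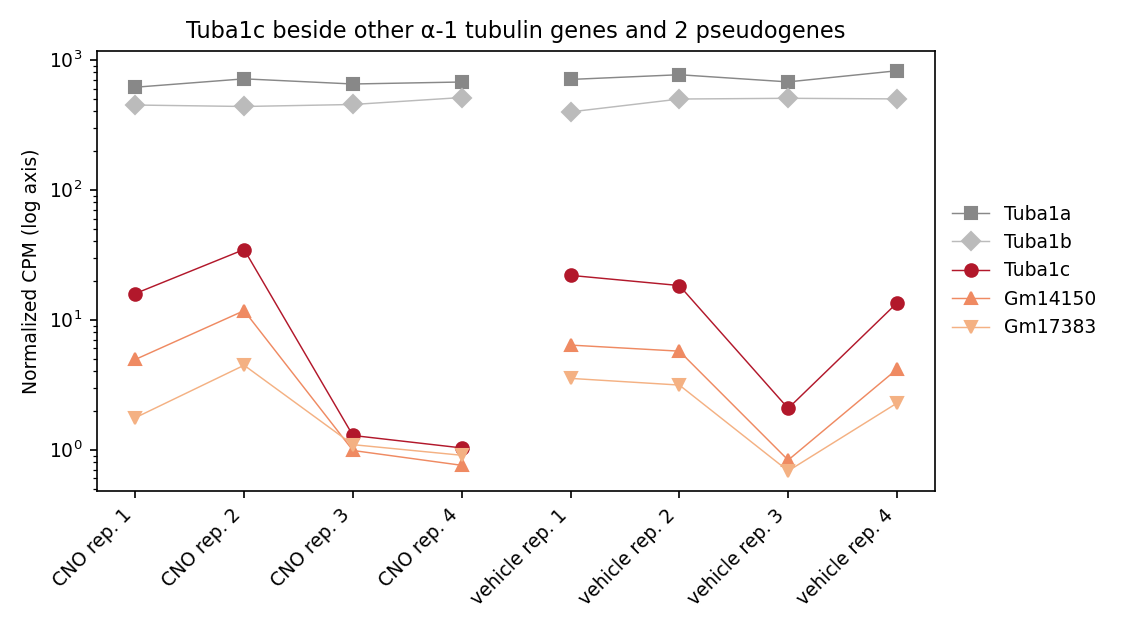
Normalized CPM on a log axis in the 8 samples for Tuba1a and Tuba1b (grey), Tuba1c (red circles), and 2 processed pseudogenes of α-tubulin, Gm14150 and Gm17383 (orange triangles); lines join samples of a group and stand for no order. Tuba1c and both pseudogenes are lowest in CNO replicates 3 and 4 and vehicle replicate 3, where Tuba1a and Tuba1b are near their other values.

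The same samples were low in 2 processed pseudogenes that share coding sequence with the α-1 genes. Gm14150, at chr2:151458956-151460309, shared 830 of its 31-base stretches with Tuba1c and all of them also with Tuba1a or Tuba1b. It held 233, 555, 46 and 36 counts with CNO and 285, 268, 40 and 206 counts with vehicle. Gm17383, which shared 887 such stretches, held 83, 211, 51 and 43 counts with CNO and 158, 147, 33 and 113 with vehicle. Both were lowest in CNO replicates 3 and 4 and vehicle replicate 3. The ratio of Tuba1c to Gm14150 counts was 1.30 and 1.38 in CNO replicates 3 and 4, 2.53 in vehicle replicate 3 and 2.96 to 3.44 in the other 5 samples, so that Tuba1c was lower relative to the pseudogene in these 3. Other pseudogenes that share 717 to 750 stretches with Tuba1c, namely Gm3756, Gm6682 and Gm5620, held at most 18 counts in any sample.

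Over the 8 samples, the 4 genes above 1 TPM whose log2 CPM was most like that of Tuba1c, of 15172 compared, were Mllt3 (Pearson r = 0.987), Gm14150 (0.986), Gm26672 (0.980) and Myo16 (0.977). The points are libraries of the same experiment, and these correlations are a description. Gm14150 shares sequence with Tuba1c and can share its reads, and the other 3 are not tubulin genes.

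The other genes most like Tuba1c moved by much less. Mllt3, which encodes a component of a transcription elongation complex, lay at 20.1 to 20.6 CPM in CNO replicates 3 and 4 and vehicle replicate 3 and at 22.9 to 23.9 CPM in the other 5 samples. Myo16, an unconventional myosin expressed in brain, lay at 9.11 to 9.83 CPM and at 13.3 to 15.4 CPM. Each of the 4 genes had an edgeR quasi-likelihood adjusted p between groups of 0.913 or higher.

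Of the tubulin genes outside the 10 isotypes, 6 of 10 were tested and none was called. Tuba3a, Tuba3b and Tubal3 were listed at 0 in all samples, and Tubb1, the β-tubulin of platelets, had 5 counts in CNO replicate 2 and 0 elsewhere. Tubg2, a γ-tubulin of the complex that nucleates microtubules and the highest of these genes at 71.1 TPM, was 52.3 ± 4.60 CPM with CNO and 50.6 ± 6.18 CPM with vehicle (log2 fold change 0.05, SE 0.11). Of these, 5 of 6 had a fitted log2 fold change above 0, with a median of 0.11, but without vehicle replicate 1 it was 2 of 6 and the median -0.03.

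Genes that act on tubulin gave 0 calls as well. Of 22 genes for tubulin folding (the tubulin cofactors, the CCT chaperonin and prefoldin), 19 had a fitted log2 fold change above 0, with a median of 0.13 and 0 at an unadjusted p under 0.05. The direction of this list was not stable, since 14 of 22 lay above 0 without vehicle replicate 1 and 6 of 22 with the marker index as a covariate. Pfdn2, a prefoldin subunit and the highest of them at 301 TPM, had a log2 fold change of -0.12 (SE 0.10).

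Of 22 tested genes for tubulin modification, 14 lay above 0 and 8 below, with a median of 0.06 (11 and 11 when scaled by library size only). Vash2, a carboxypeptidase that removes the terminal tyrosine of α-tubulin, was the only partner gene at an unadjusted p under 0.05, at 20.2 ± 3.38 CPM with CNO and 15.0 ± 3.67 with vehicle (log2 fold change 0.43, SE 0.19, edgeR quasi-likelihood adjusted p = 0.817). That is 1 of 22, against 1.44% of all genes, and it did not pass without vehicle replicate 1. Atat1, the α-tubulin acetyltransferase and the highest of this list at 144 TPM, had a log2 fold change of 0.15 (SE 0.12). Of 29 genes for microtubule-binding proteins, 19 lay above 0, with a median of 0.04, but it was 13 of 29 without vehicle replicate 1 and 12 of 29 when scaled by library size only. Map1b, the highest at 1510.5 TPM, had a log2 fold change of -0.05 (SE 0.16).

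**Figure D5:**
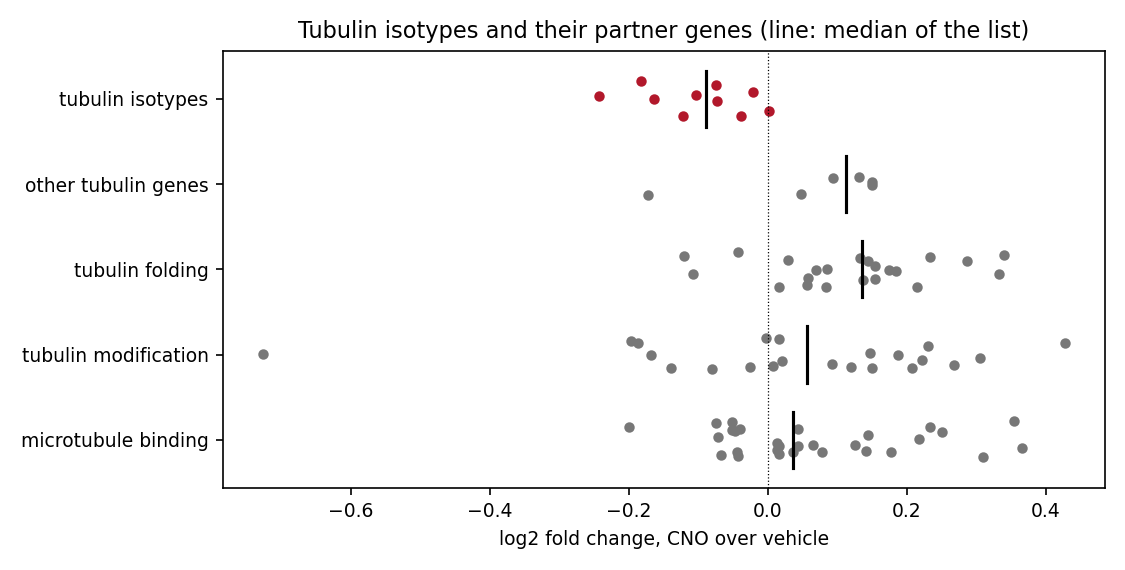
Fitted log2 fold change of CNO over vehicle for each tested gene of the 10 tubulin isotypes (red) and of 4 lists of partner genes (grey), spread vertically at random, with a line at each list's median. The median of the isotypes is -0.09 and those of the partner lists lie between 0.04 and 0.13, of which those of other tubulin, folding and microtubule-binding genes were below 0 with the marker index as a covariate. Of all these, 0 genes of any list passed the adjusted threshold.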

How the data were processed

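Estimated counts per gene and TPM were deposited for the 8 samples. According to the study's methods and the submitters' processing notes, the authors checked and trimmed paired-end reads with FastQC and Trim Galore, used STAR and Salmon with the mouse genome GRCm38/mm10, and imported estimated counts with tximport; versions, annotation release and strand setting are not given in the sources used here. TPM, as deposited, were scaled by the authors for transcript length and library. RNA of pooled brains was amplified with the SMARTer Ultra Low kit. Estimated counts were rounded, and genes with fewer than 10 counts in 4 or more samples were left out. CNO and vehicle were compared with edgeR 4.0.16 (R 4.3.3, TMM, quasi-likelihood test, Benjamini-Hochberg over 17495 genes), which was tested on simulated counts. limma 3.58.1 and DESeq2 1.42.0 served as alternatives. Sums and shares were compared by exact permutation. Depth limits counting precision little (intervals cover counting error only).

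Sequences, positions and 31-base stretches came from GENCODE M21 (GRCm38). Named were the 10 isotypes, the highest and any unadjusted p under 0.05 of each partner list, the genes most like Tuba1c, genes sharing its sequence, and Fos, Pvalb and Slc17a7; a gene that this rule names and some sequences are not reported here. The members and lists were chosen with earlier results of these data known. The samples are biological replicates per the study, each a pool of 4 brains, and replicate numbers were not taken to pair them.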

Additional observations from a re-analysis of the deposited data

Results flagged for a closer look

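The 26 sets of 4 samples examined were each isotype, the α-1 sum, the Tuba1c share and the mean PV marker level in each group. Of these, 2 held a sample far from the others, where chance alone gives about 1 in 20, or 1.3 sets. Both were in the same library, so they are not separate events. Tuba1b in vehicle replicate 1 was at 8.63 log2 CPM, with the other vehicle samples at 8.96 to 8.98. Tubb2a in vehicle replicate 1 was at 7.99 log2 CPM, with the others at 8.55 to 8.59. Vehicle replicate 1 was also the sample with the lowest PV interneuron markers, and the part of that in these values was not tested.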

How the results depend on the processing

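No isotype and no partner gene was called under any alternative. Over all genes 0 were called, but 15 with robust dispersions and a likelihood ratio test, 11 with DESeq2, 4 without the filter on low counts, 3 with replicates 1 and 2 against 3 and 4 as a block (chosen after seeing the data) and 0 to 2 with a sample left out. The log2 fold change of Tuba1c turned to 0.63 with the marker index as a covariate and ran from -1.20 to 0.31 with a sample left out (0.30 without CNO replicate 3, 0.31 without CNO replicate 4, 0.24 without vehicle replicate 1, 0.06 without vehicle replicate 2, -1.20 without CNO replicate 2). Its share difference ran from -0.58 (without CNO replicate 2) to 0.37 percentage points. Tubb3 turned to -0.049 with robust dispersions, -0.055 with library size only, -0.047 with limma on log2(TPM + 1) or log2(TPM + 0.1), and -0.21 with the marker index, and ran from -0.14 to 0.10 with a sample left out. Tubb2a ran from -0.15 (without vehicle replicate 1) to 0.036 (without CNO replicate 2). The cause of these turns was not tested. The other 258 of the values were labelled as unchanged. Fold changes and share or sum differences kept their direction and side of the threshold, and counts of called genes stayed at 0. Medians of the isotypes moved by less than the SD of the sample medians within groups. Library size alone moved the median of all genes by -0.05. Replicate numbers are shared by CNO and vehicle samples, but deviations of same-numbered samples correlated at -0.03 to 0.24, so they were not taken as pairs. With the replicate block, 0 isotypes were called, their median was -0.11 and Tuba1c was at -0.80. With 4 samples per group the smallest exact p is 0.0286, and 55.3% of the 31-base stretches of Tuba1c occur in other genes.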
